A study of Mus musculus with 24 samples.

Results

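The places where 3 transcriptional regulators (TRs) associated with autism spectrum disorder bind were examined around 7 genes that define endothelial cells, the cells that line blood vessels, in chromatin from whole mouse cortex. The genes were Tek and Tie1, which encode the angiopoietin receptor TIE2 and its co-receptor, Kdr and Flt1, which encode receptors 2 and 1 for vascular endothelial growth factor (VEGF), Pecam1 and Cdh5, which encode the adhesion molecules PECAM-1 (CD31) and VE-cadherin, and Cldn5, which encodes the tight junction protein claudin-5. For each gene, every peak was taken that overlapped the gene body or the 50 kb on either side by at least 1 base. The 7 genes are part of 21938 protein-coding genes on the main chromosomes, and 122 peaks from 6 lists were found around 6 of them. The set was chosen by its endothelial genes with the peak positions already known, and Tek was selected on having no peak in any list, so the counts below describe these genes and no test was made on them.

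In ChIP-seq, an antibody pulls down the DNA bound by its target protein, and a peak is a place where the sequenced fragments exceed the level of unenriched (input) chromatin. ARID1B is part of the BAF complex, which remodels chromatin, FOXP1 binds DNA through a forkhead domain, and TCF7L2 carries the signal of the Wnt pathway to DNA together with beta-catenin. Cortex of wildtype CD1 mice was dissected at 2 embryonic (E) stages, E15.5 and the later E18.5, and each TR had 2 ChIP and 2 input libraries at each stage, 24 libraries in all. The sample labels call the target of the last antibody TCF4, an older name of TCF7L2 that is also the symbol of another gene, and the study's methods name TCF7L2. The replicates of a TR and stage were merged into 1 list of peaks, so the spread between replicates is not known and no difference between lists could be tested.

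Blood vessels grow into the embryonic cortex from its surface. VEGF made by neural progenitors guides the endothelial cells through KDR, while FLT1 binds VEGF tightly and limits its action. Angiopoietin signaling through TIE2 and TIE1 stabilizes vessels, VE-cadherin and PECAM-1 hold endothelial cells together, and claudin-5 seals the blood-brain barrier, whose formation depends on Wnt ligands from neural cells. Endothelial cells are a minority of cortical cells, and in chromatin from the whole tissue binding in few cells and weak binding in many cells cannot be told apart. No expression data were used, so the cell types were not checked by their RNA.

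The lists held from 24890 peaks (FOXP1, E18.5) to 71442 peaks (ARID1B, E15.5). The depth, recovered from the peak statistics and counted in whichever library of a ChIP and input pair was smaller, lay between 57.3 and 80.7 M reads in 5 lists. In the FOXP1 E18.5 list the smaller library was 26.3 M reads. A ChIP read counted there as 0.561 of a read, so the smaller library was the input. Fold enrichment, which sets the reads at the summit of a peak against the background level, reached down to 3.21 in the FOXP1 E18.5 list and to between 2.33 and 2.66 in the others. A site of lower fold in the FOXP1 E18.5 list could therefore not appear there. Intervals on fold enrichment are 95% exact Poisson intervals from the reads at the summit and cover counting error only.

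The promoters of these genes differed in sequence, and they are shown because promoters with and without a peak differed in CpG content across the genome. Promoter sequences from RefSeq were used for 5 of the 7 genes, and those of Pecam1 and Cdh5 were not analysed here. The window of Tie1 was measured but is not printed, because RefSeq starts this gene further 3′ than GENCODE, and 212 of the 250 bases lie inside the gene as GENCODE annotates it. For the other genes this was 3 bases (Kdr) or 0. The 250 bases before the RefSeq transcription start are printed 5′ to 3′ on the strand of the gene, with capitals for the core of ETS factor sites (CCGGAA or AGGAAG on either strand) and of SOX factor sites (ATTGTT on either strand), families with known roles in endothelial cells.
Tek, GRCm38.p6 chr4:94739039-94739288, plus strand: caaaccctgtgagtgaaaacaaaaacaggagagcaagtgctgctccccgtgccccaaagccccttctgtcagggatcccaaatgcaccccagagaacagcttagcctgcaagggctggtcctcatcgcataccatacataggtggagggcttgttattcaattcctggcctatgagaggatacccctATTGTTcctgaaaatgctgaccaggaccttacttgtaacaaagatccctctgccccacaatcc
Kdr, GRCm38.p6 chr5:75978456-75978705, minus strand: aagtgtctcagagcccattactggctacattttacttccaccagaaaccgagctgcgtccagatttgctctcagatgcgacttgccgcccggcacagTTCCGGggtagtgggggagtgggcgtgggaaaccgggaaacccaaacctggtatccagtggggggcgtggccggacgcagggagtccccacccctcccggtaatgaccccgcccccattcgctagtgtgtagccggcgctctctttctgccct
Flt1, GRCm38.p6 chr5:147726012-147726261, minus strand: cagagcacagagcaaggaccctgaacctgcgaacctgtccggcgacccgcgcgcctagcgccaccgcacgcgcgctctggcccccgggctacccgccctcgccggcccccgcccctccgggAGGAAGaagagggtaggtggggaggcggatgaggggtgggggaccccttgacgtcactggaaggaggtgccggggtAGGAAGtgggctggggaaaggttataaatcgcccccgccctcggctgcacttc
Cldn5, GRCm38.p6 chr16:18776597-18776846, plus strand: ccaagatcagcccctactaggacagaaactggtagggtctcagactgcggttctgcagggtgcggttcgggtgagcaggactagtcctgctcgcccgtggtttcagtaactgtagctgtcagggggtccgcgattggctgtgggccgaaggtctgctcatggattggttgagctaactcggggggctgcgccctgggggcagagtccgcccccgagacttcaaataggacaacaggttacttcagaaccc

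The ratio of observed to expected CpG was 0.126 in the Tek promoter, 0.28 in the RefSeq window of Tie1, 0.549 in Cldn5, 0.676 in Kdr, and 0.744 in Flt1. The 2 promoters with the highest ratios, Kdr and Flt1, were overlapped by a peak in 4 lists each, and the other 3 were overlapped in none. Across 32841 RefSeq promoters of the same length, the median ratio was 0.193 among the 17553 promoters without a peak in any list and 0.792 among the 10919 promoters with a peak in all 6 lists. A peak was present in at least 1 list at 17.7% of the promoters with a ratio under 0.5 and at 88.9% of those with a ratio of 0.5 or more, and Cldn5 was without a peak although its ratio lay above 0.5. An ETS core was found once in Tie1, once in Kdr, and in 2 places in Flt1, and 38.2% of all promoters held at least 1. The Tek promoter held a SOX core, as did 9.43% of all promoters. The forkhead word TGTTTAC, the TCF/LEF word ATCAAAG, and the E-box CAGCTG were in none of the 5 promoters, and 3.17%, 3.21%, and 13% of all promoters held them on either strand. A match is a description of the sequence and not a measured binding site.

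**Figure D1:**
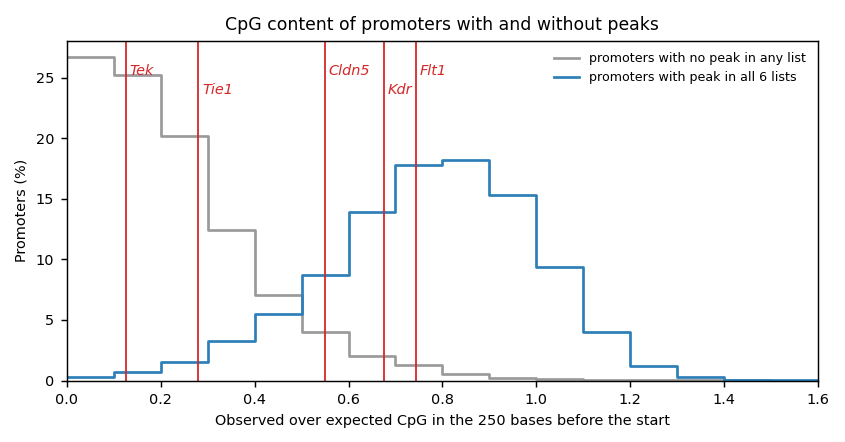
The x axis gives the ratio of observed to expected CpG in the 250 bases before the RefSeq transcription start in bins of 0.1, and the y axis the percent of RefSeq promoters without a peak in any list (gray) or with a peak in all 6 lists (blue). Red lines mark the 5 endothelial genes with a promoter sequence, with Tek (0.126) and Tie1 (0.28) at the low end and Kdr (0.676) and Flt1 (0.744) at the high end.

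The peaks were spread unevenly over the 7 genes. In the 7 regions together, ARID1B had 25 peaks at the earlier stage and 20 at the later, FOXP1 had 24 and 12, and TCF7L2 had 17 and 24. Summed over the lists, Pecam1 had 59 peaks, Flt1 and Cdh5 18 each, Tie1 16, Cldn5 7, Kdr 4, and Tek 0. Because the regions run from 101 kb (Cldn5) to 264 kb (Flt1), the genes were also compared per length. Per 100 kb, the Pecam1 region had 7.64 ARID1B peaks at E15.5, above the median of 3.12 over all protein-coding genes, and it was also above the median in each of the other 5 lists. The median of the 7 genes lay below that of all genes in every list, at 1.13 against 3.12 peaks per 100 kb for ARID1B at E15.5, and at 0.986 against 1.68 for FOXP1 at E18.5. Tek, selected on having no peak, is counted in this median.

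Many of these peaks belonged to other genes. Of the 122 peaks, 50 overlapped the 2000 bp upstream of a transcription start of a neighboring gene and not that of the endothelial gene, which left 72 peaks. Of these 72, 11 lay at a promoter of the endothelial gene itself, 4 in the first intron, 40 elsewhere in the gene body, and 17 in the flanks. Some flank peaks of Pecam1 and Cdh5 missed the 2000 bp of a neighbor but joined sites at the Tex2 and Bean1 promoters. The share that remained was 2 of 16 peaks for Tie1, 1 of 7 for Cldn5, 11 of 18 for Cdh5, 36 of 59 for Pecam1, and all of those of Flt1 and Kdr. When overlapping peaks were joined across the lists, the 122 peaks formed 38 sites, of which 8 were present in all 6 lists. Of these 8, 7 were at promoters of neighboring genes, and only the site in intron 4 of Cdh5 was not.

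**Figure D2:**
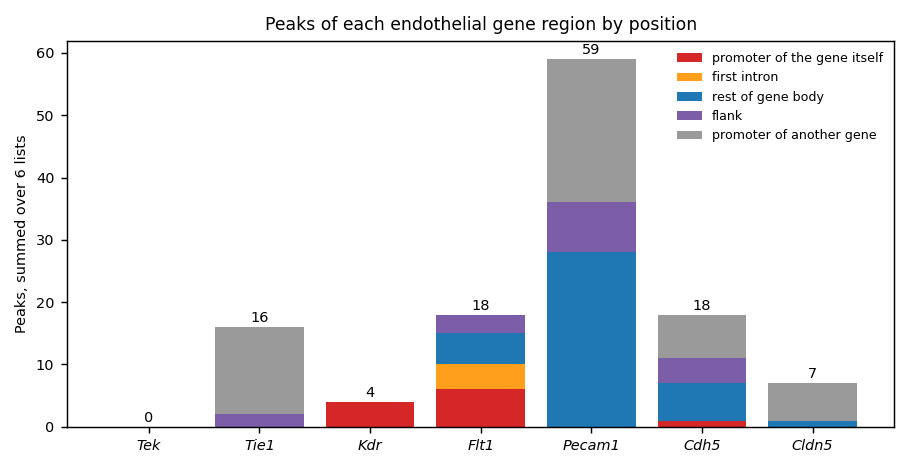
Bars give the peaks of each endothelial gene region summed over the 6 lists, colored by position. Gray, for promoters of other genes, makes up 14 of 16 peaks for Tie1 and 6 of 7 for Cldn5, and the Tek region has 0 peaks.

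At least 1 peak apart from promoters of other genes was found for 5 of the 7 genes with ARID1B at E15.5 (background over all protein-coding genes 77%), 4 with FOXP1 (78.8%), and 4 with TCF7L2 (69.7%). At E18.5 it was 3 with ARID1B (76.2%), 3 with FOXP1 (68.3%), and 6 with TCF7L2 (75.1%). With the promoters of other genes counted, 6 of 7 genes had a peak in each E15.5 list, where the backgrounds were 81.7%, 82.5%, and 77.6%. At E18.5 the counts were 5 with ARID1B (81.1%), 5 with FOXP1 (77%), and 6 with TCF7L2 (80.2%). With only 7 genes, chosen with the peaks known, nothing is read from these counts.

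Promoter peaks were counted with the same limit, that the genes were chosen with the peaks known. A peak at the promoter of the gene itself was called for 2 of 7 genes with ARID1B at E15.5 (Kdr and Flt1, background 58.8%), 3 with FOXP1 (Kdr, Flt1, and Cdh5, 61.8%), and 2 with TCF7L2 (Kdr and Flt1, 57.3%). At E18.5 it was 1 with ARID1B (Flt1, 57.3%), 0 with FOXP1 (54.9%), and 2 with TCF7L2 (Kdr and Flt1, 61.2%). None of the 7 had a promoter peak in all 6 lists, and 51.8% of protein-coding genes did. There was none in any list for 4 of the 7 (Tek, by its selection, Tie1, Pecam1, and Cldn5), and for 35.9% of protein-coding genes. The 11 promoter peaks were low, with a highest fold of 4.18. None reached a −log10 p of 15, a height at which between 40.1% and 55% of protein-coding genes still had a promoter peak, depending on the list. With peaks of at least 4-fold only Kdr kept a promoter peak, in the FOXP1 E15.5 and TCF7L2 E18.5 lists.

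**Figure D3:**
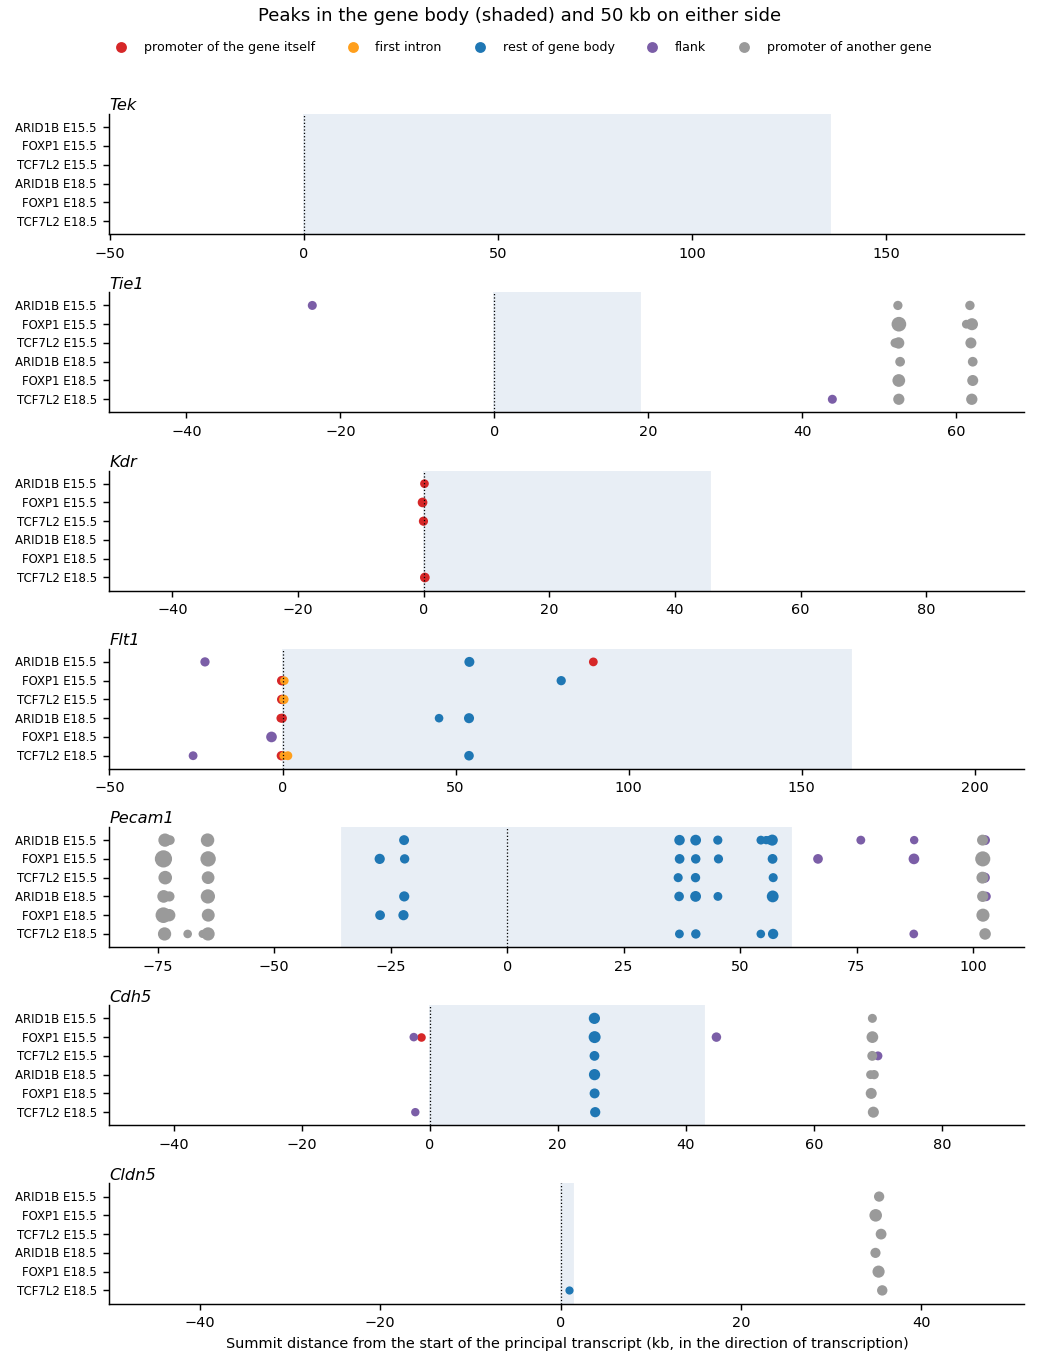
Each panel is a gene region, with the distance of a peak summit from the start of the principal transcript in kb on the x axis and the 6 lists on the y axis. Shading marks the gene body, larger points stand for higher fold enrichment, and colors give the position of the peak. The Tek panel is empty, the points of Kdr sit at the start, and the gray columns around Tie1, Pecam1, Cdh5, and Cldn5 are promoters of other genes.

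Among the angiopoietin receptors, Tek (ENSMUSG00000006386.15, GRCm38 chr4:94739289-94874976, plus strand) had no peak of any TR at either stage in its region of 236 kb. The nearest peaks were at the promoter of Ift74, an intraflagellar transport gene, 124 to 125 kb before the gene, with folds between 3.65 (ARID1B, E18.5) and 9.49 (FOXP1, E15.5). After the gene, the nearest peaks were 103 to 104 kb away at the promoters of Mysm1, which encodes a histone H2A deubiquitinase, or of Gm12694 beside it. The stretch without a peak was 363 to 364 kb long in every list. A region without a peak in any list was found for 3469 protein-coding genes (15.8%), of which 1210 were olfactory or vomeronasal receptors by symbol. Among the 1675 protein-coding genes with a region at least as long as that of Tek, 31 had no peak (1.85%), Tek included. The 773 genes with a region within 10 percent of its length had a median of 33 peaks over the 6 lists. The genes with the longest regions without a peak were Dach2 (639 kb), Skint5 (622 kb), Skint6 (582 kb), Mageb18 (581 kb), and Rtl4 (534 kb). The Tek region held no unknown bases, its GC content was 41%, the lowest of the 7 regions, and its repeat-masked share was 46%, the highest of the 7. The part of GC content and repeats in the lack of peaks was not tested.

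Tie1 (ENSMUSG00000033191.14, GRCm38 chr4:118471191-118490061, minus strand) had no peak in its gene body or promoter. The sites in all 6 lists lay 3′ of the gene at the promoters of Cdc20, an activator of the anaphase-promoting complex, and Elovl1, a fatty acid elongase. In the E15.5 lists, fold enrichment at Cdc20 was 3.66 (ARID1B), 11.6 (FOXP1), and 6.4 (TCF7L2), and the E18.5 values were 4.21, 8.36, and 6.13. FOXP1 had the highest fold at Cdc20 in both stages, but at E18.5 its interval (6.36 to 10.8) overlapped that of TCF7L2 (4.64 to 7.95), and the TCF7L2 peak ranked higher in its own list (above 83.6% of peaks) than the FOXP1 peak (above 74.1%). At Elovl1 the same lists gave 3.84, 7.34, and 5.88, followed by 4.21, 5.85, and 6.24. Away from these promoters there was an ARID1B peak at E15.5 of 3.39-fold 23.7 kb before the start and a TCF7L2 peak at E18.5 of 3.39-fold 43.9 kb after it, each in that list alone.

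Among the VEGF receptors, Kdr (ENSMUSG00000062960.10, GRCm38 chr5:75932827-75978458, minus strand) had a single site, at its transcription start, and nothing else in a region of 146 kb. Fold enrichment was 3.04 (2.12 to 4.22) for ARID1B at E15.5, 4.18 (2.9 to 5.84) for FOXP1 at E15.5, 3.58 (2.51 to 4.97) for TCF7L2 at E15.5, and 4.16 (2.96 to 5.69) for TCF7L2 at E18.5. These intervals overlap. No peak was called with ARID1B or FOXP1 at E18.5, where the lowest folds called were 2.66 and 3.21, and both limits lie inside the intervals of the E15.5 peaks of the same TR. The summits lay between 169 bp before and 196 bp after the start, and 3 of the 4 peaks ranked above between 16.1% and 50.2% of the peaks of their list, with the TCF7L2 E18.5 peak above 63.8%. This was the only promoter among the 7 genes where all 3 TRs met at E15.5, against 56.6% of all protein-coding genes, and none did at E18.5 (53.8%). The genes with the most similar promoter heights over the 6 lists, by Euclidean distance of log2 fold, were Slc1a6 (0.13), Zfp275 (0.141), and Kcnip4 (0.162).

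Flt1 (ENSMUSG00000029648.13, GRCm38 chr5:147561604-147726011, minus strand) had 18 peaks at 9 sites, all apart from promoters of other genes, and 7 of the sites were in a single list. At its start, the highest promoter peaks were 3.92-fold (2.69 to 5.55) for FOXP1 at E15.5, 3.89-fold (2.77 to 5.34) for TCF7L2 at E15.5, 3.37-fold (2.19 to 4.98) for ARID1B at E18.5, and 3.72-fold (2.6 to 5.18) for TCF7L2 at E18.5. The intervals overlap, as at Kdr. FOXP1 at E18.5 had no peak at the start and a peak of 5.41-fold (3.85 to 7.43) 3178 bp before it, its sole peak in the region. ARID1B at E15.5 had no peak at the start either. Its promoter call (3.13-fold) came from the start of a shorter non-coding transcript inside intron 13, and was lost when only protein-coding transcripts were used. The genes with the most similar promoter heights were Il17rc (0.142), Hhip (0.197), and Mecom (0.209). The Flt1 heights matched here include the ARID1B E15.5 call at the non-coding start in intron 13, and each of these 3 genes had an ARID1B E15.5 promoter peak of 3.3-fold.

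A site in intron 10 of Flt1, 53.9 to 54 kb after the start, was bound by ARID1B at both stages and TCF7L2 at E18.5. Its fold enrichment was 4.55 (3.4 to 5.96) for ARID1B at E15.5, 4.63 (3.21 to 6.48) for ARID1B at E18.5, and 4.05 (2.87 to 5.57) for TCF7L2 at E18.5, with summits within 109 bp. In the E18.5 lists these values were higher than those at the Flt1 start, but the intervals overlap. The other peaks of Flt1 were each in a single list and of low height. They were a FOXP1 E15.5 peak in intron 12 (3.67-fold), an ARID1B E18.5 peak in intron 6 (2.95-fold), a TCF7L2 E18.5 peak in intron 1 (3.28-fold), and, upstream of the gene, an ARID1B E15.5 peak 22.4 kb (3.66-fold) and a TCF7L2 E18.5 peak 25.8 kb (3.17-fold) before the start. Further peaks in intron 1 also flanked the start in the FOXP1 E15.5 (2.91-fold), TCF7L2 E15.5 (3.89-fold, the same height as its promoter peak), and TCF7L2 E18.5 (2.96-fold) lists.

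Pecam1 (ENSMUSG00000020717.19, GRCm38 chr11:106654217-106750628, minus strand) had the most peaks of the 7 genes, and 28 of them lay in its gene body without touching a promoter. None was at a start of the gene, although 8 starts are annotated. In intron 14, near the 3′ end of the principal transcript, a site was present in 5 lists. In the E15.5 lists its fold enrichment was 5.97 (4.64 to 7.57) with ARID1B, 4.3 (3 to 5.99) with FOXP1, and 3.47 (2.42 to 4.85) with TCF7L2. In the E18.5 lists it was 7.01 (5.22 to 9.23) with ARID1B and 4.93 (3.61 to 6.58) with TCF7L2. ARID1B had the highest value at this site in both stages, with intervals that overlapped those of the other TRs.

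A pair of sites in intron 13 of Pecam1 had the same 5 lists. At the site nearer the 3′ end, about 40.5 kb after the start, ARID1B reached 5.53-fold, FOXP1 3.92-fold, and TCF7L2 3.79-fold at E15.5, while ARID1B reached 5.61-fold and TCF7L2 3.83-fold at E18.5. At the other, about 37 kb after the start, the same lists gave 5.17, 4.18, and 3.47, followed by 4.07 and 3.17. FOXP1 at E18.5, the list with the lowest recovered depth, lacked all 3 of these intronic sites. It was present further upstream, between the principal start and an alternative start of the gene. There, 22 kb before the principal start, ARID1B (4.46-fold, then 4.77-fold) and FOXP1 (3.8-fold, then 4.82-fold) had a site that TCF7L2 lacked at both stages. About 27 kb before the start, FOXP1 alone had a peak at both stages (4.81 and 4.24-fold). ARID1B accounted for most of the weaker sites of the gene body. In intron 14, it had peaks of 2.68-fold at 2 places that no other list shared, and a peak of 3.21-fold that TCF7L2 at E18.5 shared (2.96-fold). A further intron 14 site, 45.2 to 45.4 kb after the start, was in the ARID1B lists of both stages (3.57 and 3.23-fold) and in the FOXP1 E15.5 list (3.54-fold). Beyond the 3′ end of the gene, a site 87.3 to 87.4 kb after the start was in the FOXP1 E15.5 (5.44-fold), ARID1B E15.5 (2.77-fold), and TCF7L2 E18.5 (3.06-fold) lists, and the interval of FOXP1 (3.96 to 7.31) overlapped that of TCF7L2 (2.06 to 4.41) but not that of ARID1B (1.9 to 3.91).

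The highest folds of the Pecam1 region belonged to neighbors. At the shared promoter of Ddx5, an RNA helicase, and Cep95, a centrosomal protein, the E15.5 lists of ARID1B, FOXP1, and TCF7L2 reached 9.26, 16.6, and 9.74-fold, and their E18.5 lists 8.28, 13.4, and 9.2-fold. At the promoter of Polg2, the accessory subunit of the mitochondrial DNA polymerase, the values were 9.53, 12.9, and 8.38, followed by 10.9, 8.65, and 9.2. At the promoter of Tex2 they were 5.79, 12.4, and 7.13, followed by 6.03, 8.95, and 6.57. All 3 promoters were bound in all 6 lists.

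Cdh5 (ENSMUSG00000031871.9, GRCm38 chr8:104101625-104144511, plus strand) had the sole site of the 7 genes that was in all 6 lists and was not the promoter of another gene. It lay in intron 4, between 25729 and 25857 bp after the start, and the summits of the 6 lists fell within 128 bp. ARID1B had a fold enrichment of 6.15 (4.8 to 7.77) at E15.5 and 6.17 (4.5 to 8.26) at E18.5, FOXP1 of 7.21 (5.48 to 9.33) and 4.53 (3.12 to 6.39), and TCF7L2 of 4.31 (3.12 to 5.82) and 4.82 (3.52 to 6.45). The intervals of the 2 stages overlap for each TR. Within its list the site ranked above 85% of peaks for ARID1B and 81.2% for FOXP1 at E15.5, but above only 22.3% for FOXP1 at E18.5.

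At the start of Cdh5 there was little. FOXP1 at E15.5 had a peak of 2.91-fold (1.87 to 4.34) 1286 bp before the start, above 3.82% of the peaks of its list. A site just outside the promoter, 2.48 and 2.24 kb before the start, was called in the FOXP1 E15.5 (2.91-fold) and TCF7L2 E18.5 (2.74-fold) lists. At the promoter of the neighbor Bean1, 6 lists had a peak, with E15.5 folds of 3.39, 6.83, and 4.41 and E18.5 folds of 3.65, 5.85, and 5.91 in the order ARID1B, FOXP1, TCF7L2. A FOXP1 peak at E15.5 after the 3′ end of the gene (3.92-fold) was in no other list.

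Cldn5 (ENSMUSG00000041378.2, GRCm38 chr16:18776847-18778262, plus strand), a gene with a single exon of 1416 bp, had no promoter peak. The TCF7L2 E18.5 list held a peak of 2.52-fold (1.62 to 3.76) inside the exon, 980 bp after the start, which ranked above only 0.154% of the peaks of that list and was 200 bp wide, the smallest width called. All other peaks of its region were at the shared promoter of Cdc45, a replication helicase cofactor, and Ufd1, a ubiquitin pathway gene. There, in the same order, the E15.5 folds were 4.9, 8.1, and 5.56 and the E18.5 folds 4.77, 7.47, and 5.04.

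**Figure D4:**
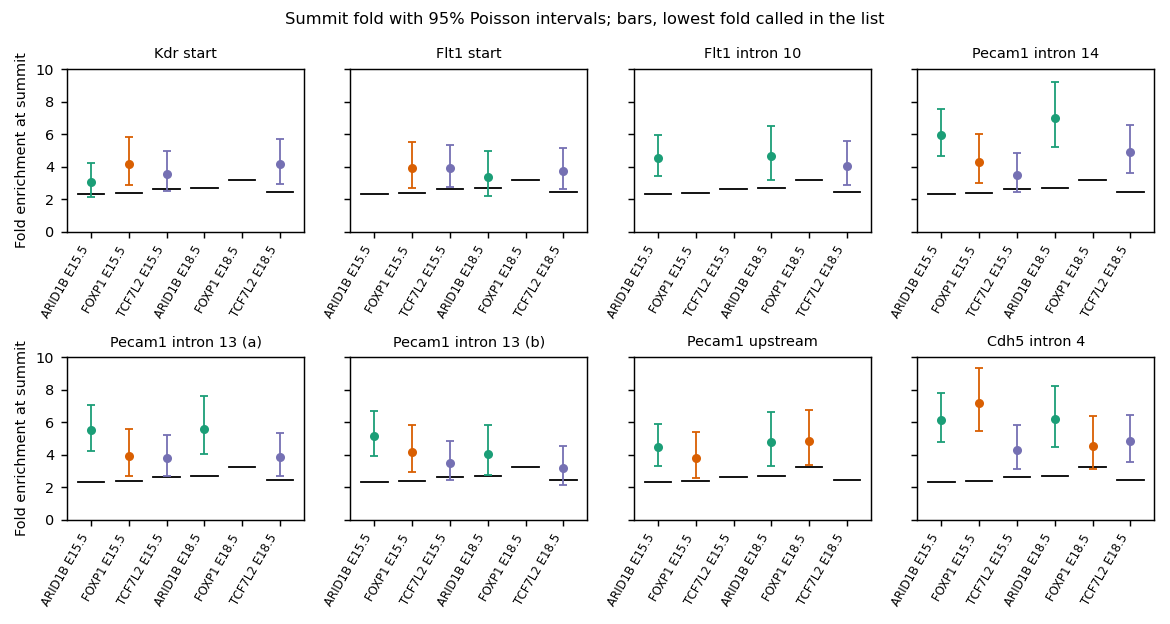
Points give the fold enrichment at the summit in each list for 8 sites, with 95% Poisson intervals that cover counting error only, and black bars give the lowest fold called in that list. Where several peaks of a list form a site the highest is shown. The Cdh5 intron 4 site is the only one with a point in all 6 lists, and the points of the Kdr and Flt1 starts reach no higher than 4.18-fold (Kdr, FOXP1 E15.5).

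The sequences around the summits are shown for the 7 sites that lay in a gene body away from promoters and were present in at least 3 lists, since these recurred between TRs or stages. Each is 200 bases around the median summit of the lists, 5′ to 3′ on the strand of the gene, with capitals for matches to the ETS, forkhead, TCF/LEF, E-box, and SOX words given above.
Cdh5 intron 4, GRCm38 chr8:104127282-104127481, plus strand: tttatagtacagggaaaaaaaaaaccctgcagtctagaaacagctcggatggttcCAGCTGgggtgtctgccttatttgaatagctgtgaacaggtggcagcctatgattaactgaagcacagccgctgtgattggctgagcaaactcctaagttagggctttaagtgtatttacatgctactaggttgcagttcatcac
Flt1 intron 10, GRCm38 chr5:147672008-147672207, minus strand: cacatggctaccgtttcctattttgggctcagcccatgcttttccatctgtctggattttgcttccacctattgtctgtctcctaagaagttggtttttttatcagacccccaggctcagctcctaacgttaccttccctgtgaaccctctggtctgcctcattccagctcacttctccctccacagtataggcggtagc
Pecam1 intron 14, 5 lists, GRCm38 chr11:106658150-106658349, minus strand: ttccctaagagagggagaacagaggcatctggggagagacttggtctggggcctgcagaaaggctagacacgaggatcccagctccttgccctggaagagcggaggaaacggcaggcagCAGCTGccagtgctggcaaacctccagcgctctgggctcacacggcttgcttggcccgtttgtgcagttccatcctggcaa
Pecam1 intron 14, 3 lists, GRCm38 chr11:106669915-106670114, minus strand: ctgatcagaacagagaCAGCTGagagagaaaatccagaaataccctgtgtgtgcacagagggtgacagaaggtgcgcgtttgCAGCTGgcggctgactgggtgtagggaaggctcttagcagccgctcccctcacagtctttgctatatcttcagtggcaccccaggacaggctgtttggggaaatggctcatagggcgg
Pecam1 intron 13, nearer the 3′ end, GRCm38 chr11:106674692-106674891, minus strand: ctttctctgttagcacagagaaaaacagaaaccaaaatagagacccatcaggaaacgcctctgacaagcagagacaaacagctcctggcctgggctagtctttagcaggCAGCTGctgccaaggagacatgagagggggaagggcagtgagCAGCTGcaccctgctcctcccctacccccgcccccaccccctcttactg
Pecam1 intron 13, nearer the 5′ end, GRCm38 chr11:106678177-106678376, minus strand: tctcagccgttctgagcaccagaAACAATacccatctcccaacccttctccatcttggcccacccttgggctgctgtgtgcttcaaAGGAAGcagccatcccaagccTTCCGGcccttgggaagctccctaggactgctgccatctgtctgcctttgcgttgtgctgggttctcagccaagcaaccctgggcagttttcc
Pecam1 upstream of the principal start, GRCm38 chr11:106737269-106737468, minus strand: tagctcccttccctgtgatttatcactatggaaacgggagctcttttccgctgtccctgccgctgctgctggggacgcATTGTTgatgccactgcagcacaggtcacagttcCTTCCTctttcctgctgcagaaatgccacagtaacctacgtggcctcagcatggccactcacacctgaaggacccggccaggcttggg

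The E-box CAGCTG was found once in the Cdh5 window, once in the Pecam1 intron 14 window of the 5 lists, in 2 places in that of the 3 lists, and in 2 places in the intron 13 window nearer the 3′ end. The intron 13 window nearer the 5′ end held 2 ETS cores and a SOX core, the window upstream of the principal start held 1 of each, and the Flt1 window held none of the words. Over all 72 peaks apart from promoters of other genes, 23 summit windows of 200 bp held CAGCTG (31.9%), and they came from 9 of 31 sites. Among the 50 peaks at promoters of other genes, 3 windows held it (6%). Of all summit windows of the lists, those at promoters included, between 13.1% (FOXP1, E18.5) and 19.6% (ARID1B, E15.5) held it. Because the same site counts once for each list, the 72 windows are not independent, and no test was made. An ETS core was in 24 of the 72 windows, against 25.6% to 31% of all windows, and the TCF/LEF word was in 1, against 1.83% to 2.58%. The forkhead word was in none of the 72 windows and in between 1.98% and 3.49% of all windows. SOX cores were in 9 windows at 6 sites, against 4.92% to 8.31% of all windows. In GC content the 7 windows printed here ran from 44.5% (Cdh5) to 60.5% (Pecam1 intron 14, 5 lists), and their CpG ratios ran from 0.128 to 0.377, below those of the Kdr and Flt1 promoters.

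Places where all 3 TRs met numbered 12 at E15.5 and 8 at E18.5 in the 7 regions. At E15.5 there were 6 for Pecam1, 2 each for Tie1 and Cdh5, and 1 each for Kdr and Cldn5, so 5 of 7 genes had such a locus, where 76.3% of protein-coding genes did. At E18.5 there were 3 for Pecam1, 2 each for Tie1 and Cdh5, and 1 for Cldn5, which is 4 of 7 genes (background 74.2%). All 8 loci of E18.5 were at promoters of other genes except the Cdh5 intron 4 site. In the gene bodies alone, without flanks, there were 5 loci at the earlier stage and 1 at the later. The 3 loci lost by Pecam1 at E18.5 were sites that FOXP1 lacked, and Kdr lacked both ARID1B and FOXP1 there.

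Peaks were compared between the stages by overlap. For ARID1B, 16 of 25 peaks of E15.5 overlapped a peak of E18.5 (64% against 78.2% of all ARID1B peaks), and 17 of 20 of E18.5 overlapped one of E15.5 (85% against 85.5%). For FOXP1 the numbers were 10 of 24 (41.7% against 34.2%) and 11 of 12 (91.7% against 96.3%). For TCF7L2 they were 15 of 17 (88.2% against 95%) and 13 of 24 (54.2% against 56.5%). The lists differ in the depth recovered above. For each TR the list with the higher recovered depth (E15.5 for ARID1B and FOXP1, E18.5 for TCF7L2) was the one with more peaks found at a single stage. For ARID1B this turned with peaks of at least 4-fold, of which 91.7% were kept from E15.5 and 84.6% from E18.5. Peaks at promoters of other genes were kept more often than the rest in every list. From E15.5, 8 of 8 such peaks were kept for ARID1B, 7 of 8 for FOXP1, and 8 of 8 for TCF7L2, and from E18.5 the counts were 9 of 9, 8 of 8, and 7 of 9. Of the peaks apart from such promoters, 8 of 17, 3 of 16, and 7 of 9 were kept from E15.5, and 8 of 11, 3 of 4, and 6 of 15 from E18.5. The same direction held over all peaks of the lists. Among those at a promoter of any gene, 86.9%, 66.5%, and 97.9% were kept from E15.5, in the same order of TRs, and 92%, 99.5%, and 76.5% from E18.5, whereas among those at no promoter it was 75%, 19.9%, and 92.1%, followed by 83%, 92.3%, and 43.9%. Peaks at the promoters of other genes were also higher, with a median of 6.19-fold over the 6 lists against 3.86-fold for the others. Within each list the median was higher too, from 4.77 against 4.07 (ARID1B, E18.5) to 9.85 against 3.92 (FOXP1, E15.5). The part of height in being kept was not tested.

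Other genes of the vessel wall and its signals were examined with the same promoter rule. Of 20 other endothelial genes, 2 had a promoter peak in all 6 lists (10%, against 51.8% of all protein-coding genes) and 11 had none in any list (55%, against 35.9%). The 2 with a peak throughout also had the highest folds, Egfl7, a secreted factor of vessel formation, with up to 8.21-fold and Ramp2, a co-receptor for adrenomedullin, with up to 5.82-fold. The 11 without were Emcn, Robo4, Erg, Eng, Plvap, Cd34, Icam2, Clec14a, Cd93, Mmrn2, and Rasip1, most of which encode surface proteins of endothelial cells, with Erg encoding an ETS factor. Of 10 genes of mural cells, which surround the endothelium, 2 had a promoter peak in all lists (Vtn, up to 14.3-fold, and Cd248, up to 5.7-fold) and 5 in none (Cspg4, Rgs5, Abcc9, Foxs1, and Higd1b). Of 10 genes of microglia, another cell type not derived from the neural tube, 0 had one in all lists and 8 in none (Cx3cr1, P2ry12, Aif1, Trem2, C1qa, C1qb, Itgam, and Ptprc), with the highest folds at Tmem119 (6.45) and C1qc (3.54).

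The ligands of these receptors and the partners of these junctions were counted in the same way, again beside 51.8% of protein-coding genes with a promoter peak throughout and 35.9% with none. Of 12 genes of the VEGF and angiopoietin pathway, 5 had such a peak in every list (41.7%), namely the ligands Vegfa (up to 10.6-fold), Vegfb (8.21), and Vegfc (5.44) and the co-receptors Nrp1 (7.47) and Nrp2 (8.61). The ligand Pgf had a promoter peak in 5 lists (up to 4.56-fold), the ligands Angpt1 (up to 3.23-fold) and Vegfd (up to 4.63-fold) in 2 lists each, and Ptprb, which encodes a phosphatase that acts on TIE2, in 1 list (3.61-fold), while the receptor Flt4 and the ligands Angpt2 and Angpt4 had none (25% of the pathway genes without one, against 35.9%). Of 10 junction genes, 7 had it in every list (70%, against 51.8%), with folds of up to 19.4 at Ctnnb1, which encodes beta-catenin, and up to 11.4 at Cgn, which encodes cingulin, and 0 had none. Of 14 genes of Wnt signaling and the blood-brain barrier, 11 had one in all lists (78.6%, against 51.8%), with the highest folds at Axin2 (37.5), a feedback inhibitor of the Wnt pathway, and the co-receptor Lrp6 (20), and Foxq1 was the sole gene with none (7.14%, against 35.9%). At Axin2 the TCF7L2 peaks were 32.2-fold at E15.5 and 37.5-fold at E18.5, above ARID1B (6.06 and 7.01-fold) and FOXP1 (9.11 and 8.21-fold). Many of these genes act in neural as well as endothelial cells, and the cells behind a peak were not identified.

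Genes of the neural lineage were counted for comparison. Of 12 neuronal genes, 10 had a promoter peak in all 6 lists (83.3%, against 51.8% of protein-coding genes) and 0 had none (against 35.9%). The highest folds were at Bcl11b (29), a transcription factor of deep-layer neurons, and Slc17a7 (15.2), a vesicular glutamate transporter. The Bcl11b value came from the FOXP1 E15.5 list alone, and its other lists gave 3.66 to 6.57-fold. Of 12 radial glia genes, the same shares were found, 10 with one in all lists and 0 with none, with the highest folds at the transcription factors Lhx2 (11.8) and Hes5 (9.85). The median number of peaks over the 6 lists per 100 kb was 6.9 for the 7 endothelial genes, 13.9 for the 20 other endothelial genes, 26.1 for mural cells, 22.9 for microglia, 38.9 for neurons, and 56.3 for radial glia, where all protein-coding genes had 16.1. The value of the 7 genes was the lowest of these groups, but they were chosen with the peaks known and Tek for having none. Nothing is read from that order. Mural and microglia genes lay above the median of all genes, although a promoter peak in every list was rare among them. The lists have 7 to 20 genes each, were chosen with earlier results known, and were not tested against each other.

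**Figure D5:**
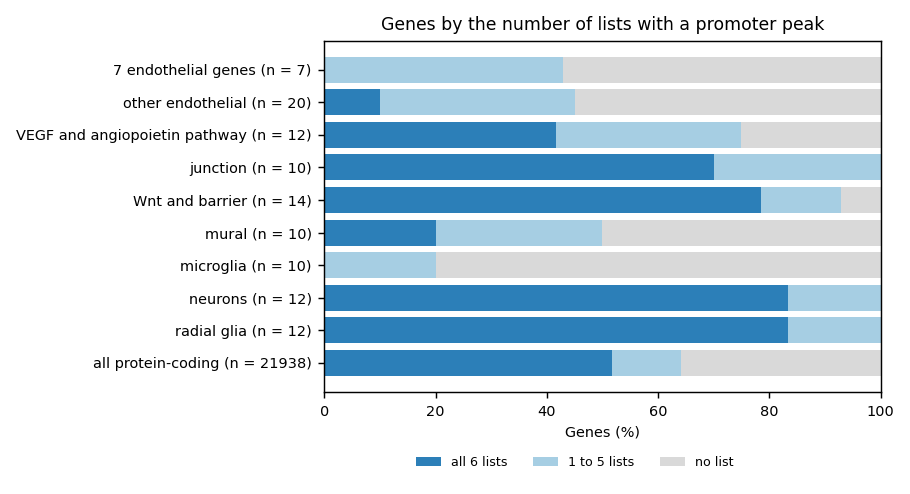
Bars give the percent of genes of each list with a promoter peak in all 6 lists, in 1 to 5 lists, or in no list, with the number of genes in parentheses. The 7 endothelial genes and the microglia genes have no gene with a promoter peak in all 6 lists, while neurons and radial glia have no gene without one.

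The regions ended 50 kb from each gene. The 4 outermost peaks inside this limit were at the Elovl1 promoter, 42.8 to 42.9 kb from Tie1, with folds of 3.84 to 6.24. The nearest outside it were a FOXP1 E15.5 peak (3.54-fold) and an ARID1B E18.5 peak (3.51-fold) 50.2 and 50.5 kb from Cdh5.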

How the data were processed

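ChIP-seq libraries of 3 TRs and their inputs, made from cortex of mouse embryos at both stages, were grouped by the sample labels. Per the labels and the study's methods, the authors aligned single reads of 50 bp with BWA 0.7.15 to GRCm38 (mm10), kept alignments with a mapping quality of at least 30, and called peaks with MACS2 2.2.7 at a q-value of 0.01 against input, without a local background and with reads lengthened to 200 bp. Merging of replicates leaves 1 list per TR and stage. The labels also name SAMtools and deepTools 3.4.3. The treatment of duplicate reads is not stated.

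The authors' lists hold, for each peak, the fold enrichment at the summit (a ratio with a pseudocount of 1). They also hold its −log10 p-value, its −log10 q-value, and a score, which the authors' software made out of the q-value and which was not used. The deposited fold and −log10 p were used as they are.

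The background and the value of 1 read were recovered from the Poisson relation of fold and p-value in each list. Reads at the summit then gave exact Poisson intervals at a confidence level of 95%. The narrowest peak was 200 bp in every list. Genes, transcripts, and starts came from GENCODE vM21, and a promoter was the 2000 bp upstream of any start. Peaks on chromosomes 1 to 19, X, and Y were used. Loci of all 3 TRs are unions of overlapping peaks of 1 stage. Sequences are from GRCm38 and from RefSeq promoters of GRCm38.p6, and motif words were searched on both strands in windows of 250 bases (promoters) or 200 bases (summits). Counting steps were tested on simulated data. Python 3.11.15, pandas 2.3.3, NumPy 2.4.6, SciPy 1.17.1, and matplotlib 3.10.9 were used.

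The 7 genes, the other gene lists, and the settings were chosen with earlier results of these data known. The genes named are the 7 genes, coding genes whose promoter holds a peak in their regions, the genes of each other list without a promoter peak and its 2 highest, the nearest promoter profiles, and the longest peak-free regions. A junction gene that this rule names is not reported here. Other genes of the VEGF, angiopoietin, and Wnt lists were named after their values were seen. Other flanks, peak thresholds, overlap rules, and promoter definitions were tried as alternatives.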

Additional observations from a re-analysis of the deposited data

How the results depend on the processing

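No paired analysis was possible because each list was called on merged replicates, and no replicate could be left out for the same reason. Of 117 values recomputed under an alternative, 59 stayed within 1.5 times the value or within its 95% Wilson interval and 58 moved. In the order ARID1B, FOXP1, TCF7L2 of the E15.5 and then the E18.5 lists, the gene bodies without flanks held 12, 11, 6, 9, 3, and 10 peaks with 5 and 1 loci of all 3 TRs at the 2 stages. Flanks of 10 kb gave 12, 15, 7, 10, 4, and 12 peaks with 5 and 1 loci. Flanks of 100 kb moved FOXP1 at E15.5 to 39 and ARID1B at E18.5 to 32. A −log10 p of at least 15 left 11, 10, 6, 6, 6, and 9 peaks, 15 of them apart from promoters of other genes, 4 and 3 loci, and 0 genes with a promoter peak in any list. It moved the percent kept between stages to 100 for ARID1B and FOXP1 from E18.5 and for TCF7L2 from E15.5. Peaks of at least 4-fold numbered 12, 14, 9, 13, 12, and 11, of which 30 were apart, with 5 loci at E15.5. They left 0 genes with a promoter peak for ARID1B at both stages and for TCF7L2 at E15.5, and 1 gene for FOXP1 at E15.5 and for TCF7L2 at E18.5. Their percent kept was 91.7 for ARID1B (84.6 from E18.5, which turned the order of the stages), 64.3 for FOXP1, and 100 for TCF7L2 from E15.5, and 72.7 for TCF7L2 from E18.5. Summits within 200 bp gave 40 and 50 for ARID1B from E15.5 and E18.5. With the summit inside the promoter, ARID1B at E15.5 and TCF7L2 at E18.5 had 1 gene with a promoter peak. With 1000 or 500 bp on either side of a start, or protein-coding transcripts alone, ARID1B at E15.5 had 1. Fewer peaks and shorter regions account for lower counts by construction, and other causes were not tested. Requiring the summit, or most of the peak, inside a region changed no count. Tek had no peak under any flank tried. Kdr and Flt1 were the genes with promoter peaks under most definitions, and Cldn5 gained one (TCF7L2, E18.5) with 1000 bp on either side of a start.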
